A study of Drosophila melanogaster with 3 samples.

Results

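The genes described here encode 5 chromatin proteins of Drosophila melanogaster that bind DNA through high mobility group (HMG) boxes or AT-hooks. They are HmgD, HmgZ, Dsp1, D1 and Ssrp, taken from 13945 protein-coding genes. The data are chromatin immunoprecipitation with sequencing (ChIP-seq) of a GFP fusion of CG32006, a gene for which the RefSeq table lists FoxJ1, a forkhead name, as a synonym. Peaks were assigned to these genes when the summit lay in the gene body or within 5 kb of it, and 14 of the 11665 peaks of the authors' optimal list did so. The peaks were thus chosen by the same list whose signal, position and recurrence are given below, so these values are descriptions and carry no test.

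The study had 1 group of 3 biological replicates and no second condition. Each replicate was whole prepupae of mixed sex from 1 transgenic line whose insertion encodes CG32006 fused at its C-terminus to eGFP, and chromatin was pulled down with an antibody against GFP. The label of 48 days is no prepupal age, so only the stage name is used. What drives the fusion gene is not given in the sources used here, whole animals mix all tissues, and the cells that carried the signal cannot be told apart. The labels number the replicates as biological but do not say whether separate cultures were used, so the spread between them may be partly technical.

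HMG-box proteins of the HmgD and HmgZ kind are small, abundant proteins that bind the minor groove with little sequence preference and bend DNA. Dsp1 carries paired HMG boxes, acts as a corepressor with Dorsal, and is known for a part in recruiting Polycomb group proteins. D1 has many AT-hooks and binds AT-rich satellite DNA, and Ssrp is the HMG-box subunit of FACT, the histone chaperone that lets polymerases pass nucleosomes, in which its partner is the product of dre4.

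Sequence is shown for the peaks near Dsp1 and D1 whose windows hold no untranslated region, to be set beside the base composition given below. The windows at HmgD and HmgZ are not shown, though their base composition was computed as well. Each line is the plus strand of Release 6 (dm6), 5′ to 3′, the summit base and 50 bases each side, and capitals mark the longest unbroken stretch of A and T. The lines are the strongest Dsp1 peak (chrX:16332961-16333061), the Dsp1 intron peak (chrX:16335255-16335355) and the peak near D1 (chr3R:9237387-9237487).
Dsp1, strongest: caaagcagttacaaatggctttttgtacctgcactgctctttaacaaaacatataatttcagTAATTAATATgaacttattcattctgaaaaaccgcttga
Dsp1, intron: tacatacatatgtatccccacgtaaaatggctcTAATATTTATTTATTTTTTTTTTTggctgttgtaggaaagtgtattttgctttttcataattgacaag
Near D1: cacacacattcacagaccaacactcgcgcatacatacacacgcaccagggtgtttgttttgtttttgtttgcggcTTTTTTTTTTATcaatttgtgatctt
The stretches in capitals are 10, 24 and 12 bases long. The one in the Dsp1 intron is the longest among the windows of all 14 peaks.

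The peaks were unevenly spread over the 5 genes. HmgD had 10 and HmgZ 9, and all 9 were shared with HmgD. Of these, 4 lay in the overlap of the gene bodies, and the others counted for both genes through the 5 kb flanks. Dsp1 had 3, D1 had 1 and Ssrp had 0. A peak by this rule was common, since 54.1% of all protein-coding genes had at least 1, and 4 of the 5 members did. Counts as high as those of HmgD and HmgZ were rarer, with 9 or more summits at 2.14% of genes. Per kb of gene and flanks, HmgZ had 0.442 summits and HmgD 0.396, against 0.0871 over the chromosome arms, and 158 and 257 of the 13945 genes reached as much. Dsp1 had 0.176 per kb and D1 0.0795.

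**Figure D1:**
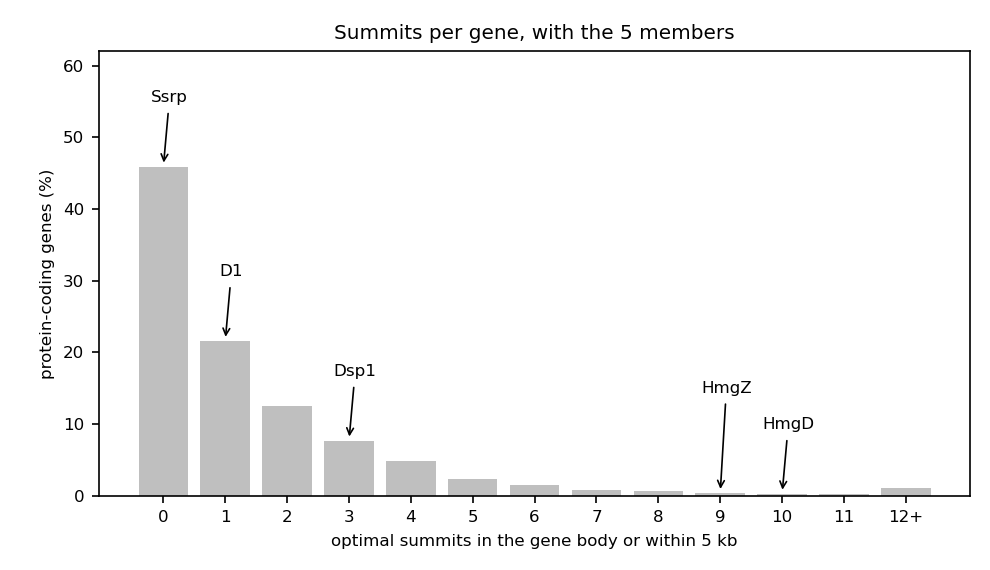
Share of protein-coding genes (percent, vertical axis) by the number of optimal summits in the gene body or within 5 kb (horizontal axis; the last bar holds 12 and more), with arrows at the 5 members. Genes with 0 summits make up 45.9%, where Ssrp lies, while HmgZ with 9 and HmgD with 10 stand in the sparse right tail.

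HmgD (chromosome 2R, 21701458 to 21716727, plus strand) and HmgZ (chromosome 2R, 21697488 to 21707861, minus strand) are on opposite strands and overlap by 6404 bp, so that each gene holds the first TSS of the other. The 10 summits spanned 12.6 kb, from 21700831 to 21713392. Of these, 6 lay in the body of HmgZ, 8 in that of HmgD and 4 in both. None lay in a coding exon, and all but 1 lay in introns. A peak in the shared stretch cannot be assigned to one of the genes from these data.

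The strongest peak near any member stood in this shared stretch (chromosome 2R, 21703069 to 21703755), in introns of both genes. Its signal, the authors' deposited peak height on a scale that is not stated, was 9554, which ranked 3 of 11665. The replicate lists gave it signals of 2890.0, 3326 and 3391 in replicates 1, 2 and 3, and ranks of 1, 5 and 3. It was thus among the few highest rows in each library taken alone. Since the scales of the lists differ, each signal was also divided by the median of the 11665 strongest rows of its own list, here called the relative signal. The relative signal of this peak was 20.9 ± 0.834 (SD, n = 3). Its summits in the 3 lists lay within 11 bp of the optimal summit. The nearest transcription start site (TSS), 595 bp downstream of the summit on the strand of HmgZ, was that of HmgZ-RA and HmgZ-RC, and the TSS of HmgZ-RB was 1076 bp away. This peak held 64.2% of the summed signal of the 10 peaks.

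The next peak of the locus (chromosome 2R, 21706053 to 21706890) was broad and carried a pair of summits 199 bp apart, 1317 and 1118 bp inside HmgZ from the TSS of HmgZ-RD. The first summit had a signal of 1396 and relative signals of 2.54, 2.89 and 3.41 in replicates 1, 2 and 3. The second had a signal of 739.6 and relative signals of 1.14, 1.47 and 1.41. Each replicate resolved both summits, and the first was the higher in all 3. The strongest peak of the locus exceeded the first of these summits 8.4-, 7.46- and 5.86-fold in the 3 lists (7.24 ± 1.28, SD, n = 3).

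Another 3 intronic peaks recurred in every replicate with relative signals above 1. At 21700831, inside HmgZ and 627 bp before the TSS of the longest HmgD transcript, the signal was 844 and the relative signal 1.83 ± 0.179 (SD, n = 3). At 21709113, in an intron of HmgD and in the exon of the non-coding gene lncRNA:CR44749, the signal was 735 and the relative signal 1.64 ± 0.125 (SD, n = 3). At 21709760, also in an intron of HmgD, the signal was 602 and the relative signal 1.31 ± 0.215 (SD, n = 3). The relative signals of the first and second of these overlapped between replicates, from 1.72 to 2.04 and from 1.56 to 1.78. Those of the third, from 1.09 to 1.52, lay below both, and the order of the 3 peaks was the same within every replicate.

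**Figure D2:**
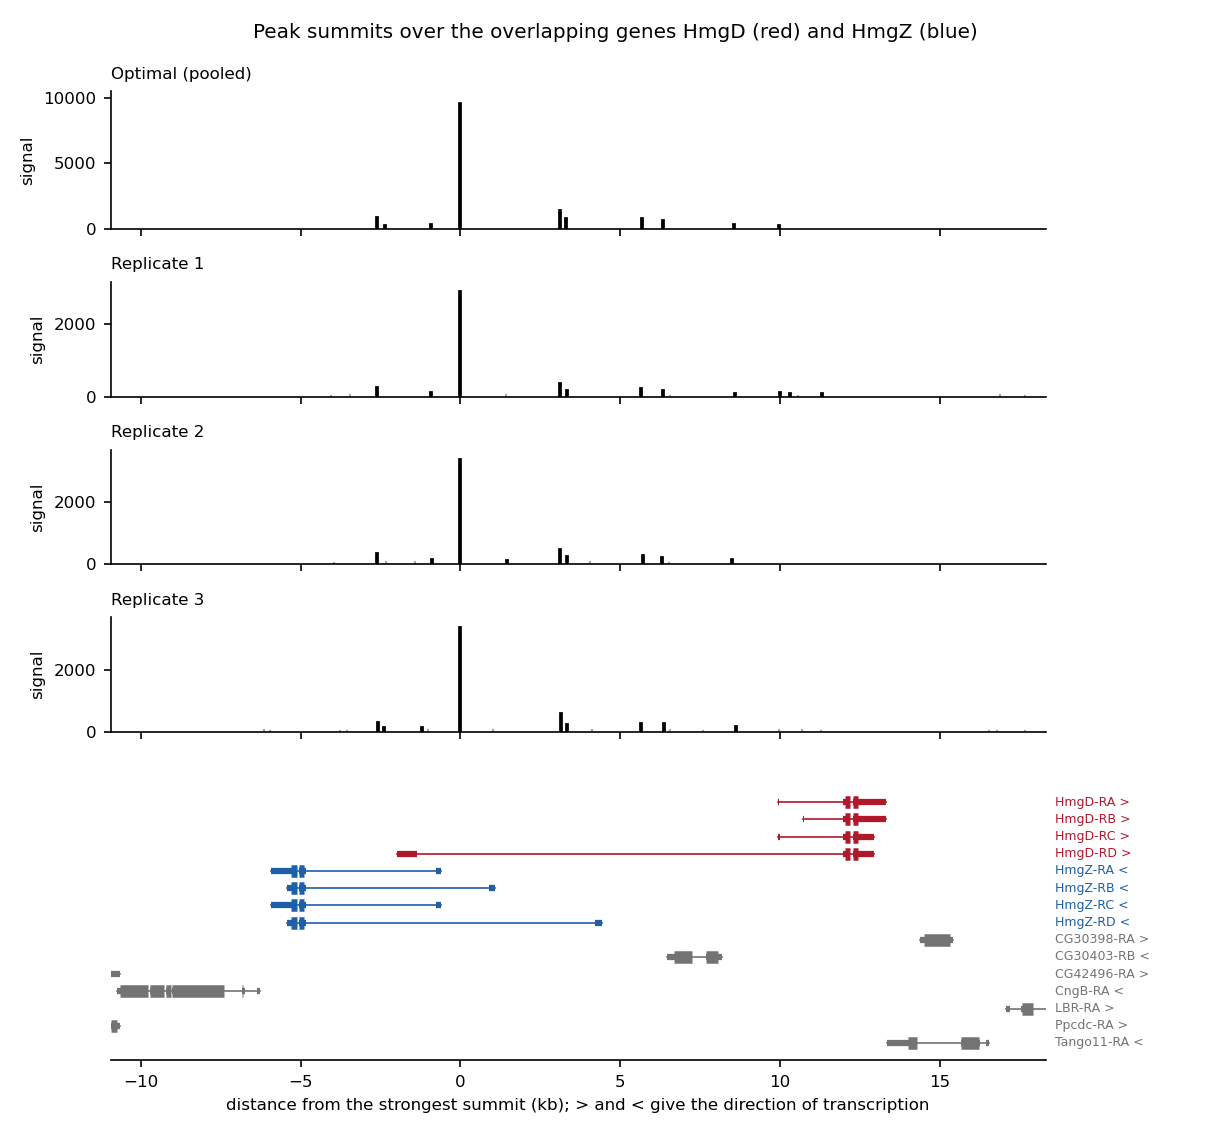
Summits over the overlapping genes HmgD (red) and HmgZ (blue) in the optimal list and in each replicate list. The vertical axis is the deposited signal of that list, black bars are among the 11665 strongest rows of their list, short grey bars are weaker rows, the horizontal axis is the distance from the strongest summit in kb, and thick parts of the transcripts are coding. The bar of 9554 at 0 and the pair just right of it recur in all 3 replicates. The summits of the optimal list lie between the coding exons of HmgZ and those of HmgD, while some weaker replicate rows lie outside them.

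Within 500 bp of the start sites of HmgD and HmgZ there were only weak peaks. The TSS of HmgD-RA and HmgD-RC lay 36 bp from a summit in the 5′ UTR with a signal of 198, rank 11591 of 11665, just above the weakest optimal signal of 197. Replicate 1 held it among its 11665 strongest rows (rank 8649). In replicate 3 it ranked 13540, and in replicate 2 no row covered it. The TSS of the longest transcript, HmgD-RD, was 404 bp from a summit with a signal of 225, supported by replicate 3 alone. This peak overlapped the stronger one at 21700831 by 121 bp. The TSS of HmgZ-RA was 310 bp from a summit with a signal of 273, supported by replicates 1 and 2. The last peak of the locus, at 21711986, had a signal of 309.6, was supported by all 3 replicates and lay 373 bp before the TSS of CG30403, a gene nested in HmgD.

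Dsp1 (chromosome X, 16333612 to 16340624, plus strand) had 3 peaks. The strongest (16332732 to 16333301) had a signal of 3604 and ranked 189. Its signals in replicates 1, 2 and 3 were 1022, 1163 and 1437, with ranks of 195, 243 and 133, and its relative signal was 7.85 ± 0.542 (SD, n = 3). The summit, in the first sequence above, was 601 bp before the main Dsp1 TSS and in an intron of CG9921, whose own TSS was 589 bp away. The start sites of Dsp1 and CG9921 point away from each other and are 12 bp apart, so the peak cannot be assigned to one of these genes by distance.

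The peak in the Dsp1 intron (16335180 to 16335487), the second sequence above, had a signal of 1021. Its signals in replicates 1, 2 and 3 were 305, 327 and 362, and its relative signal was 2.17 ± 0.0726 (SD, n = 3), the smallest SD among the member peaks above the list median. It lay 879 bp before the TSS of Dsp1-RF, the shortest transcript, and replicate summits lay within 8 bp of it. The third peak (16333873 to 16334342), in the 5′ UTR and 496 bp from the main TSS, had a signal of 225 and was supported by replicates 1 and 2. The strongest Dsp1 peak exceeded the intron peak 3.62 ± 0.317-fold and the 5′ UTR peak 17.9 ± 4.28-fold within the replicate lists (SD, n = 3).

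D1 (chromosome 3R, 9238083 to 9240654, minus strand) had 1 weak peak, outside the gene (9237202 to 9237671). Its signal was 279, rank 8792, and its signals in replicates 1, 2 and 3 were 129, 70.7 and 80.8. Replicate 1 was the highest and the other replicates were close to each other, with ranks of 6147, 11661 and 11401, so that the other replicates held it near the end of their 11665 strongest rows. The summit was 646 bp past the 3′ end of D1 and 2830 bp from its nearest TSS. It lay in an intron of pum, 245 bp inside the TSS of that gene, which encodes a translational repressor that binds RNA. Over the D1 gene itself the optimal list had 0 summits. The pooled list held a weaker region over its 3′ UTR (9237999 to 9238468), with a signal of 161 and rank 13582, which replicates 1 and 3 had among their strongest 11665.

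Ssrp (chromosome 2R, 23806361 to 23809004, minus strand) had no region within 5 kb in the optimal list, in the pooled list of 30000 rows or in any of the 3 replicate lists. The nearest optimal summit was 35836 bp away, with a signal of 1268. A lack of optimal summits was common for a gene of this size, since 49.8% of protein-coding genes of 2 to 3 kb had none within 5 kb. This share holds for the optimal list only. The share of genes with no region in the longer pooled and replicate lists was not counted. The depth of the libraries is unknown, and no region in these lists does not show that CG32006-GFP was absent.

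**Figure D3:**
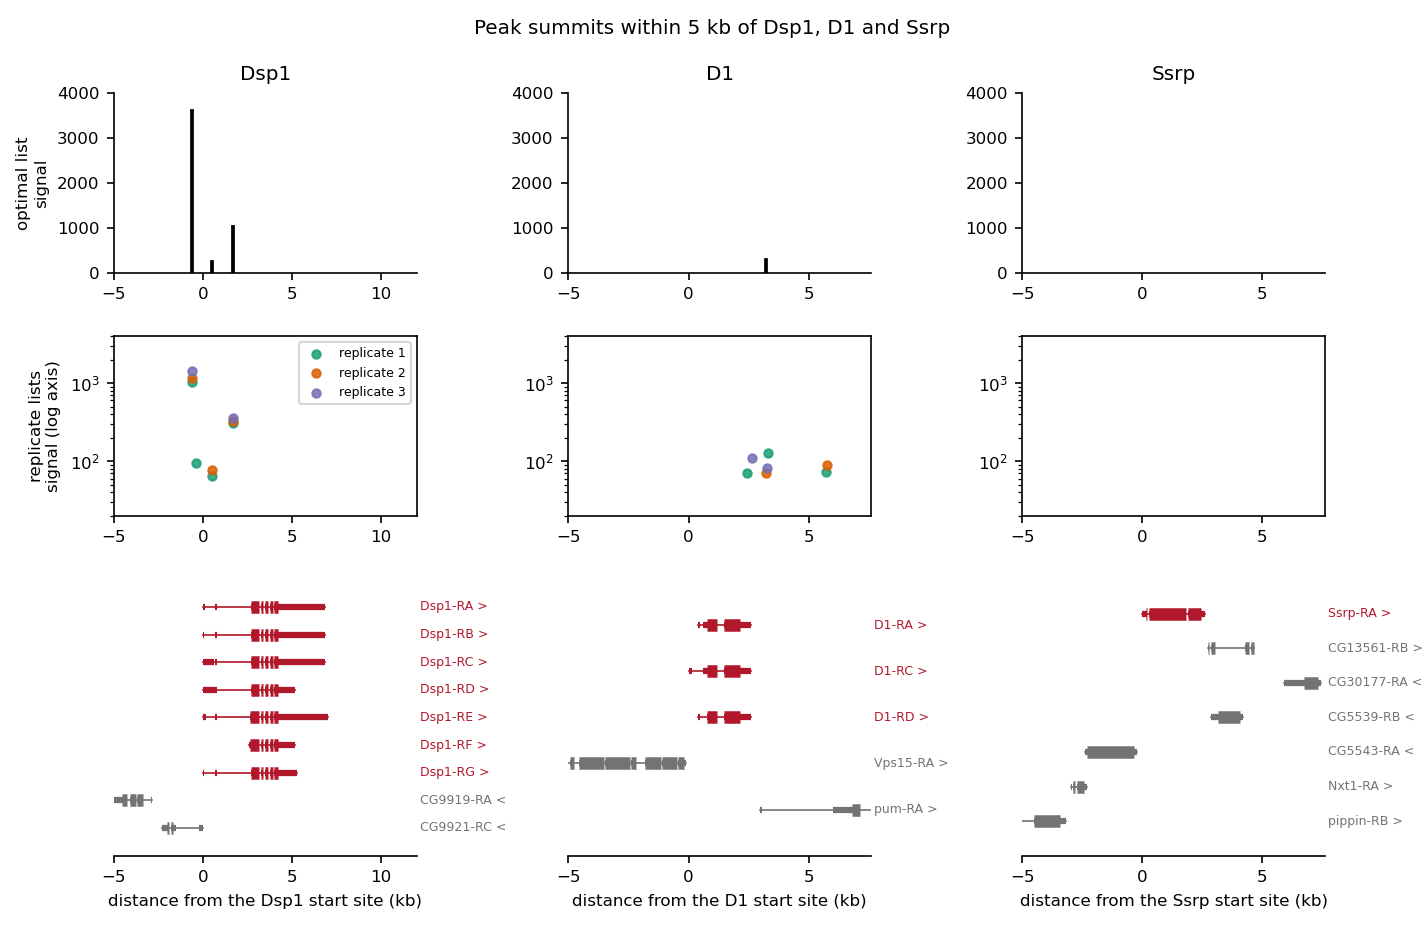
Summits around Dsp1, D1 and Ssrp, with the signal of the optimal list (top), the signal of the 11665 strongest rows of each replicate on a log axis (middle) and the transcripts (bottom), over distance from the TSS in kb, drawn in the direction of the named gene. The Dsp1 peak of 3604 lies just before the TSS, the D1 peak of 279 lies past the 3′ end, and the Ssrp panels are empty.

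A replicate was counted as supporting a peak when the summit lay inside one of its 11665 strongest rows. By this rule 10 of the 14 peaks were supported by all 3 replicates, 2 by 2 and 2 by 1, and the share of 71.4% was close to the 73.6% of all optimal peaks. Replicates 1, 2 and 3 supported 13, 12 and 11 of them. All 8 member peaks in the strongest 50% of the optimal list were supported by all 3 replicates, beside 92.8% of all optimal peaks of that strength. Of the 6 weaker ones 2 were, beside 54.4% of all weaker optimal peaks. The 24 relative signals of those 8 peaks, 1 in each replicate, ran from 1.09 to 21.5. The 16 available for the other 6 ran from 0.372 to 0.951. The peaks were grouped by their signal in the pool of these same replicates, so this separation was largely fixed in advance. The optimal list was made from the same reads, so neither the recurrence nor the separation is an independent check.

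**Figure D4:**
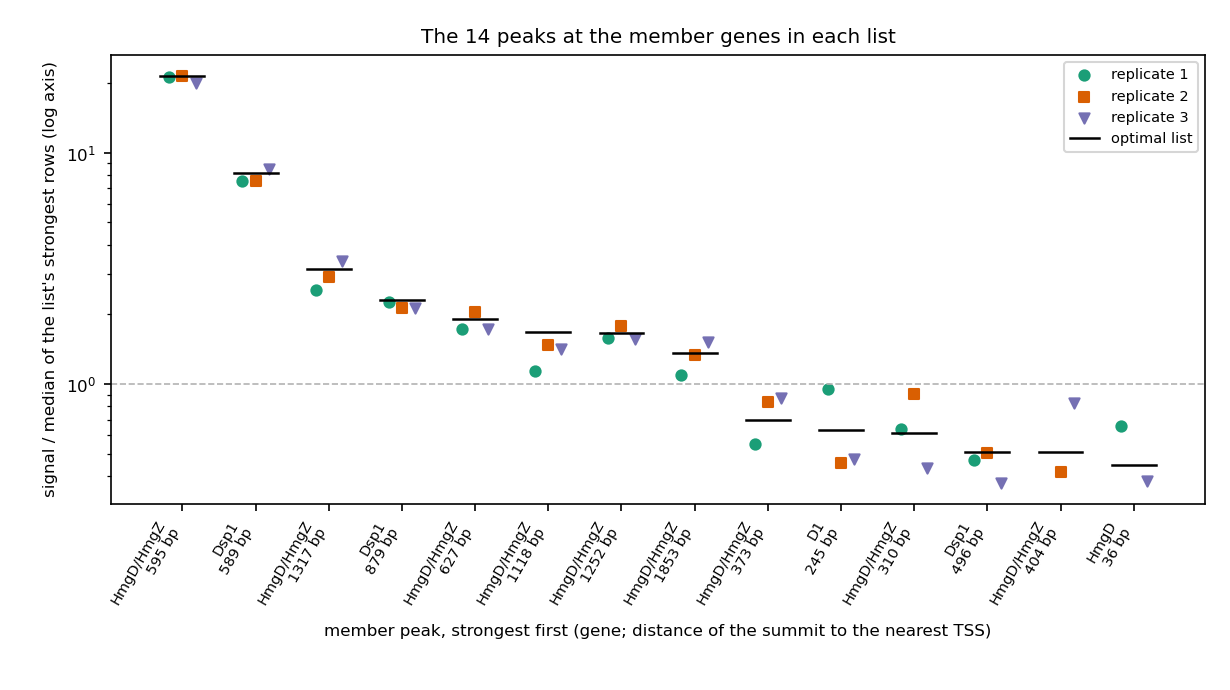
Relative signal (vertical log axis, signal divided by the median of the 11665 strongest rows of the list) of each of the 14 peaks, strongest first, with the distance to the nearest protein-coding TSS under the gene name. Colored points are the 3 replicates and bars the optimal list. The first 8 peaks lie above the dashed line at 1 in every replicate and the last 6 below it wherever a row was present.

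Distance to a start site and signal were read together, with a result that depended on the distance used. Of the 14 summits, 6 (42.9%) were within 500 bp of a protein-coding TSS, against 22.9% of all optimal summits. These shares are not like for like. Member summits had to lie in a gene body or within 5 kb of it, while all optimal summits include distal ones. The part of this rule in the difference was not tested. Some of the 6 were nearest to start sites of other genes, pum and CG30403. These 6 were the weaker ones, with signals from 198 to 309.6 and a median of 249. The 8 farther away had signals from 602 to 9554 and a median of 932, so at 500 bp the ranges did not overlap. This turned at 1000 bp, because the strongest peaks lay just past 500 bp, that of HmgD and HmgZ at 595 bp and that of Dsp1 at 589 bp from the nearest TSS. Within 1000 bp there were 10 member summits with signals from 198 to 9554, the strongest peaks included, and the 4 farther away ran from 602 to 1396. The medians were 295 and 737. In the whole list the median was higher near a TSS at both distances, with 541 within 500 bp and 421 farther away, and 517 and 416 at 1000 bp. Of all peaks in the strongest 50%, 27.1% were within 500 bp of a TSS, and of the 8 member peaks among them 0 were. At the level of genes, HmgD, HmgZ and Dsp1 had a summit within 500 bp of a TSS, 3 of 5 against 19.1% of all protein-coding genes. Each of these summits was a weak one. These genes are 15270, 10374 and 7013 bp long, against a median of 2166 bp, and have 3, 3 and 2 start sites. HmgD and HmgZ also share a locus. The part of length and of the number of start sites was not tested. The split of signal by distance was described after the values were seen.

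**Figure D5:**
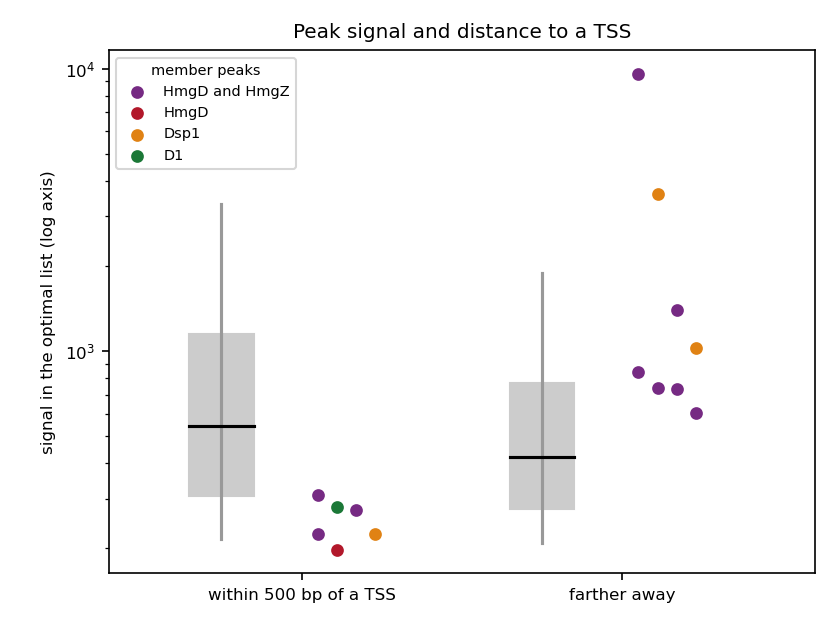
Signal in the optimal list (vertical log axis) for summits within 500 bp of a protein-coding TSS and farther away. Grey boxes span the 25th to 75th percentile of all optimal peaks with the median as a black line and whiskers at the 5th and 95th percentile, and points are the member peaks. The 6 member points at left lie below the median of 541, and the 8 at right above the median of 421, with the highest points at right only 595 and 589 bp from a TSS.

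The mean base composition at the member summits was near that of all optimal summits. The mean GC content of the windows of 101 bp was 34.9% over the 14 summits (SD between summits 8.48), and 32.9% over all optimal summits. With the summits at the members among the 11665 strongest rows of each replicate list the mean was 34.8% ± 2.81 (SD, n = 3). The strongest HmgD and HmgZ peak stood at 26.7%, the strongest Dsp1 peak at 30.7% and the Dsp1 intron peak at 27.7%. Values ran from 22.8% at the summit 404 bp before the HmgD-RD start site to 50.5%, which was reached at 21700831 and 21711986. In 10 of the 14 peaks the summit had less GC than the mean of the windows 500 bp either side, against 83.5% of all optimal peaks. The longest stretch of A and T in a window had a median of 10.5 bases, beside 10 in all optimal peaks.

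Short words were counted on both strands in the same windows. The word AAAAA was in 11 of the 14 windows and in 59.8% of all optimal windows. The word TGTTT, contained in the forkhead sequence TGTTTAC, was in 5 windows and in 43.4% of all. These 5 included the strongest HmgD and HmgZ peak and, among the printed sequences, the strongest Dsp1 peak and the peak near D1. The full TGTTTAC was in 0 member windows and in 2.23% of all. GAGAG, the core of the GAGA factor sequence, was in 1 window and in 9.56% of all, and TCGATA, the BEAF-32 sequence, was in 0 and in 3.73%. A match is a description of the letters, not of a binding site.

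Genes related to the members were read from lists of other HMG-box genes, histone chaperones, heterochromatin and satellite DNA proteins, and factors of Polycomb response elements. Of the 46 genes, 33 had an optimal summit in the gene body or within 5 kb (71.7%, beside 54.1% of all genes), and the median of their strongest signals was 1106, beside 893. The listed genes were longer, with a median of 4688 bp against 2166 bp, which widens the window in which a summit counts. The part of length in this share was not tested.

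Among other HMG-box genes 11 of 16 had a peak. The strongest were at bbx, which encodes an HMG-box factor (signal 5104), and at Sox14, which encodes an ecdysone-responsive Sox factor (5023), with summits 202 and 245 bp from their TSSs. They were followed by cic, the gene of the repressor Capicua (2151), and Sox102F (1875). Genes with 0 peaks were D, Sox21a, Sox21b, SoxN and pan, named after their values were seen.

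Among the histone chaperones 8 of 12 had a peak. The strongest, 5930.4, was near Caf1-55, a subunit of several chromatin complexes, but its summit was 121 bp from the TSS of the neighbouring gene Art3. Spt6, an elongation factor gene, had 3653 at a summit 1620 bp from the TSS of schlank. The gene yem, which encodes a partner of Hira, had 879 at a summit 332 bp from its own TSS and 159 bp from that of Ctl2. The gene of the largest subunit of chromatin assembly factor 1 had 824. The gene of the Ssrp partner in FACT, dre4, had 2 peaks, where Ssrp had 0. The stronger had a signal of 549 (rank 4703), was supported by all 3 replicates and lay 219 bp from the dre4 TSS. Of all protein-coding genes 54.1% had at least 1 peak, and dre4 is 4739 bp long, against 2644 bp for Ssrp.

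In the list named for heterochromatin and satellite DNA proteins 7 of 10 genes had a peak. The list was drawn broadly, and not every gene in it encodes such a protein. The peak within 5 kb of ash1, a trithorax group gene, had a signal of 9844, rank 2 of all, and lay 91 bp from the TSS of CG14100. The founding gene of the heterochromatin protein 1 family had 4278, 52 bp from the TSS of its neighbour CG8360. The gene lola had 2986, and the topoisomerase gene Top2 had 1550.0 at a summit 141 bp from the TSS of Hs2st. The gene prod, whose product binds satellite DNA as D1 does and which was named after its value was seen, had 1 peak with a signal of 395.

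Among the Polycomb response element factors and Dorsal 7 of 8 had a peak. Trl, the GAGA factor gene, had 9056 (rank 7). The gene phol had 5256, 109 bp from the TSS of CG3552, and grh and psq had 1866 and 1734 among 15 and 19 peaks. The gene of Dorsal, dl, had 1660.0 at a summit in a 5′ UTR, and pho had 0 peaks, both named after their values were seen. The strongest Trl peak was intronic, 1526 bp from the nearest TSS. The lists were not tested against each other.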

How the data were processed

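ChIP-seq for CG32006-GFP was carried out on 3 replicates, numbered as in the labels. Per the deposited notes, the authors called peaks in each replicate and in the pool of 3 against the same control, which was not analysed here, and derived the optimal list from these. Caller and threshold are not stated in the sources used here. Peak signal is the authors' deposited value on an unstated scale, −log10 q values are as deposited, and depth is unknown. The dm3 lists were not used here.

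Summits were start plus offset, and 9 that fell beyond their peak were moved to its final base. The 240 rows with repeated coordinates were kept. Genes came from Ensembl release 115 and sequence from RefSeq Release 6. Window counts were tested on simulated data. Python 3.11.15 and pandas 2.3.3 were used. Of 48 listed symbols 46 matched, and CG7045 and CG7046 did not.

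The members and gene lists were chosen with earlier results of these data known. The rule named all 5 members, the 4 genes per list with the strongest peak, and dre4. Alternatives changed the distance, threshold, support rule, window and replicate list. With 1 group no groups were compared and no test was run.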

Additional observations from a re-analysis of the deposited data

How the results depend on the processing

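The number of peaks at the members was 14, and it was 22 within 10 kb and 8 in the strongest 50% of the optimal list. The 5 other settings of distance, repeated rows and replicate list gave 12 to 18, and a distance of 2 kb gave 14 as well. Each replicate list was cut here to its 11665 strongest rows, the length of the optimal list. Under every distance down to 2 kb the members with a peak were HmgD, HmgZ, Dsp1 and D1. D1 had none with gene bodies only or in the strongest 50%. Support by all 3 replicates held for 10 peaks, and for 6 with a reciprocal overlap of 50%. It held for 12 with all 30000 rows of a replicate, and for 10 with rows of a −log10 q of at least 2. With 1 replicate left out, the others supported 10 to 12. Summits within 500 bp of a TSS numbered 6, against 1 at 200 bp, 10 at 1000 bp and 0 in the strongest 50%, so this count rests on the distance chosen. So does the split by strength, since at 1000 bp the strongest member peaks counted as near a TSS and the signal ranges overlapped. The strongest peak ranked 3 in the optimal list, 1 in the list of replicate 1 and 5 in that of replicate 2. Companion genes with a peak numbered 33, against 13 with gene bodies only and 12 with promoters only. Mean GC content moved by less than the spread between replicate lists. The weak peaks near the HmgD start sites had deposited −log10 q values of 3.15 and 2.8 and the support of 1 replicate each. Depth is unknown, and whether such weak peaks differ from background was not tested here.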

Other observations

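The shape of a row went with its strength. In the optimal list 47.5% of the rows had the same width of 470 bp with the summit at the centre, and their median signal was 284, against 805 for the others. At the members 5 of 14 rows were of this kind, with a median signal of 225 against 844. They were 2 near HmgD start sites, that near CG30403, that in the Dsp1 5′ UTR and that near D1. The summits of replicate rows lay a median of 30 bp from the optimal summit for these 5 (13 values) and 13 bp for the other 9 (27 values). The largest shifts went the other way, with 87 bp for these 5 and 101 bp for the other 9. The −log10 q was at its highest value of 4.26 in 77.4% of all optimal rows and in 11 of the 14, so it does not rank the stronger peaks.

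Below the optimal threshold the pooled list held 12 further regions near HmgD, HmgZ and D1 and none near Dsp1 or Ssrp. Of these, 2 had a −log10 q of at least 2, both near D1. The stronger (chromosome 3R, 9234680 to 9235149, signal 195, rank 11773) missed the optimal list by little and was among the 11665 strongest rows of replicates 1 and 2. Its summit lay outside D1, past the 3′ end, in an intron of pum.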
